A study of Mus musculus with 6 samples.

Results

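The data described here are the RNA levels of 10 receptor chain genes, chosen by name from 21047 genes listed in 2 lines of mouse macrophages. They are Il4ra, Il13ra1, Il6st, Il6ra, Il10ra, Il10rb, Ifnar1, Ifnar2, Ifngr1 and Ifngr2, which encode chains of receptors for interleukins and interferons. Only RNA was measured, so chains or receptors called higher or lower are so in RNA. The cells were iBMDM, immortalised mouse bone-marrow-derived macrophages. The A20KO group was 3 libraries of cells knocked out for A20, the product of Tnfaip3 and a brake on NF-kB that works by editing ubiquitin chains, and the WT group was 3 libraries of the wild-type line. The labels name no treatment of either group, and they do not say whether the knockout line was 1 clone or whether libraries came from separate cultures. The p-values therefore measure the spread between these libraries, which may be technical.

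These receptors are built from several chains that have no enzyme activity of their own. The signalling chains carry kinases of the JAK family on their tails, and the cytokine brings these chains together so that the kinases phosphorylate the tails and the STAT factors that dock there. The Il6ra chain carries no such kinase, and IL-6 signals through paired gp130 chains. In macrophages IL-4 and IL-13 act through STAT6 towards an alternatively activated state, IL-6 and IL-10 act through STAT3, type I interferons drive an antiviral state, and interferon-gamma drives a microbe-killing state.

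All 10 chains differed between the lines. In A20KO the receptor for IL-6 rose in both chains, as did the ligand-binding chain of the interferon-gamma receptor, and the other 7 chains fell. Il6st, the signalling chain shared by the IL-6 family, was 2.25-fold higher, the only change of at least 2-fold among the 10. The falls ran from 14.1% for Ifnar1 to 42% for Il4ra. Of the 10 chains 3 were higher and 7 lower at an adjusted p under 0.05, where 39.8% of the 17376 genes tested passed, 20.3% higher and 19.6% lower. With edgeR on recovered reads all 10 passed too, in the same directions, beside 40.5% of genes, 20.7% higher and 19.8% lower. Among the 8628 genes at least as abundant as Il10ra, the least abundant chain, 59.5% passed in either direction. The median absolute log2 fold change was 0.49 over the 10 chains, against 0.21 over those 8628 genes and 0.32 over all genes tested. In all 10 the A20KO and WT values did not overlap, as in 46.9% of genes tested (24.5% higher and 22.4% lower). Values are normalized read counts as the authors deposited them, which are read counts divided by a size factor per library. A log2 fold change is the A20KO mean minus the WT mean of log2(value + 1), which understates the change of low genes, and comes with its standard error (SE) and adjusted p from limma.

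The A20KO libraries held 13308840 to 14433653 reads assigned to genes and the WT libraries held 13722924 to 15130697. Each chain had 125 to 2638 reads in a library. Tnfaip3 had 194, 196 and 189 normalized reads in the A20KO libraries and 389, 382 and 437 in the WT libraries (log2 fold change -1.06, SE 0.101, adjusted p = 7.1e-14), so its RNA was lower but present, and the counts do not show the edited site. Of 10 macrophage markers, all were in the table, with a summed level of 28189.8 to 28349 in A20KO and 32231 to 32871 in WT, and Mertk had no read in WT. Csf1r, Mertk and Fcgr1 rose, while 6 others fell and Adgre1 did not pass. Among all genes tested 20.3% were higher and 19.6% lower, and 59.5% passed among genes as abundant as the receptor chains. Mertk passed the minimum mean only through A20KO. Of 5 markers each for other cell types the table held 1 of T cells (Lck), 2 of B cells, 3 of neutrophils, 1 of mast cells, 3 of dendritic cells and 2 of fibroblasts. Their sums in A20KO and WT were 45 to 46.8 and 35.3 to 58.7 for T cells, 64.4 to 79.8 and 138 to 185 for B cells, and 35.2 to 53.6 and 102 to 138 for neutrophils. For dendritic cells they were 72.5 to 84.9 and 35.9 to 42.9, and for mast cells and fibroblasts at most 3.15 in any library. The neutrophil genes Mpo and Elane had no read in A20KO. The part of these markers in the receptor results was not tested. In bulk RNA, fewer cells that express a chain and less RNA per cell cannot be told apart.

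**Figure D1:**
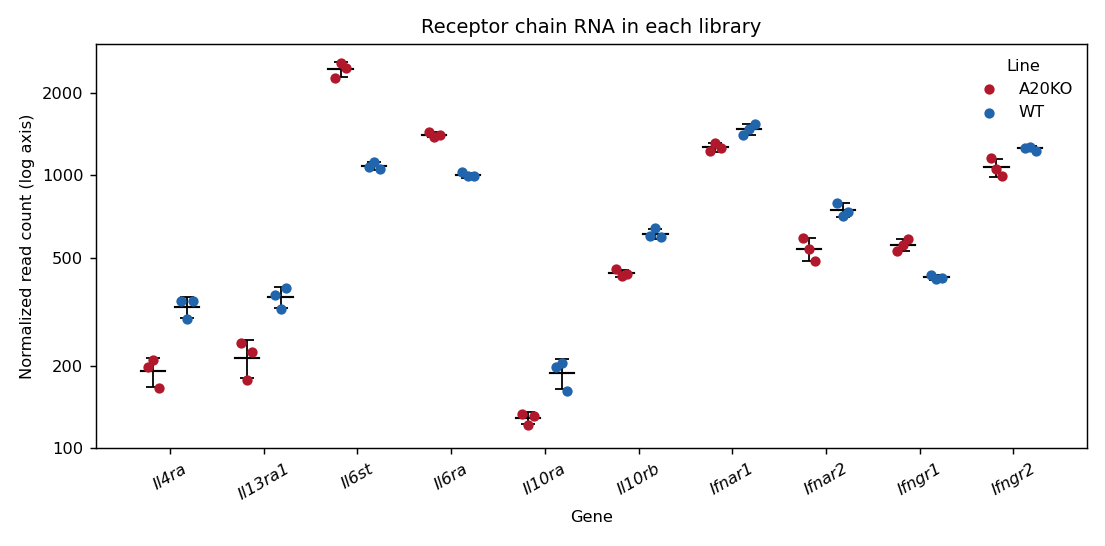
Normalized read counts (log axis) of the 10 receptor chains in the 3 A20KO libraries (red, left) and the 3 WT libraries (blue, right), with mean and SD in black. In every gene the A20KO points lie wholly on one side of the WT points, above them for Il6st, Il6ra and Ifngr1 and below them for the other 7.

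The receptor for IL-6 was higher in both chains. Il6st encodes gp130, the signal-transducing chain that receptors for IL-6, IL-11, LIF, oncostatin M and IL-27 share. Il6st (ENSMUSG00000021756, chromosome 13 from 112464070 to 112510086 in mm10, plus strand) had 2274, 2580.2 and 2478 normalized reads in the A20KO libraries, against 1069.6, 1124 and 1056 in the WT libraries. Even the lowest A20KO library was far above the highest WT library. The log2 fold change was 1.17 (SE 0.0512, 95% interval 1.07 to 1.27, adjusted p = 2.0e-29). In absolute size it exceeded 88.2% of all genes tested. Il6ra encodes the chain that binds IL-6 itself and does not signal on its own. Il6ra (ENSMUSG00000027947, chromosome 3 from 89864059 to 89913196, minus strand) had 1444, 1387 and 1405 in the A20KO libraries, against 1028, 991 and 992 in the WT libraries. The libraries of each line were close together, with a coefficient of variation of 2.07% in A20KO and 2.08% in WT. Its log2 fold change was 0.49 (SE 0.0545, adjusted p = 1.2e-11). Il6ra shares 242 exonic bases with Gm42809 on the opposite strand, a gene with 1 read in each group, and the sources used here do not give the strand setting of the counts.

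Both chains of the type II IL-4 and IL-13 receptor were lower. Il4ra encodes the chain that binds IL-4 and serves in both forms of the receptor, with the common gamma chain in type I and with the Il13ra1 chain in type II. Il4ra (ENSMUSG00000030748, chromosome 7 from 125552120 to 125579474, plus strand) had 198, 210.3 and 166 normalized reads in the A20KO libraries, against 346, 297 and 347 in the WT libraries. Every A20KO value was well below the lowest WT value. The log2 fold change was -0.79 (SE 0.11, 95% interval -1.01 to -0.57, adjusted p = 1.2e-08), the largest fall of the 10. Il4ra shares 571 exonic bases with Gm44876 on the opposite strand, which had 0 reads in A20KO and 2 in WT. Il13ra1, which binds IL-13 (ENSMUSG00000017057, chromosome X from 36112110 to 36171259, plus strand), had 243, 178 and 225 in the A20KO libraries, against 364, 325 and 386 in the WT libraries. A20KO replicate 2 was the lowest, and the groups still did not overlap. Its log2 fold change was -0.74 (SE 0.108, adjusted p = 3.7e-08), and it ranged from -0.83 to -0.61 when 1 library was left out.

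The promoters of Il6st and Il4ra are shown because these chains had the largest rise and the largest fall. Each sequence is the 250 bases before the RefSeq start in GRCm38.p6, 5′ to 3′, with matches to searched motifs in capitals.
Il6st, chr13:112463820-112464069, plus strand: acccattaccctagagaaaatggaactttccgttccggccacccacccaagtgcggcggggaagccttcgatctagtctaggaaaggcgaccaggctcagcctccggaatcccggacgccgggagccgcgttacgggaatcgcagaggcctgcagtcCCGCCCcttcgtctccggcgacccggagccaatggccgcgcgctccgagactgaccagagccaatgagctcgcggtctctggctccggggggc
Il4ra, chr7:125552021-125552270, plus strand: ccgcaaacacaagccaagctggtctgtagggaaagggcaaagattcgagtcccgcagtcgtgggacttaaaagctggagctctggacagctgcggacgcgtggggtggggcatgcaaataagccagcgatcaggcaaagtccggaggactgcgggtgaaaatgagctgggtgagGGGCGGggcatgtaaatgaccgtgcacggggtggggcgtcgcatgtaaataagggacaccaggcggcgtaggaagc
The motifs searched on both strands were the GC box GGGCGG, the TATA box TATAAA, the STAT-type GAS site TTCNNNGAA, the interferon-stimulated response element GAAANNGAAA and, by name, the NF-kB consensus. Both promoters held 1 GC box, on the minus strand in Il6st and on the plus strand in Il4ra, and no match to the others. The annotated Il4ra gene starts at 125552120, before the RefSeq start, so part of its stretch, the GC box included, lies within that gene. RefSeq promoters were matched for 8 of the 10 chains, all except Il10ra and Il10rb. A GC box stood in 6 of these 8 and in 32.7% of all 32851 promoters of the same length. Those 32851 promoters were not matched to the 8 for CpG number or RNA level. The number of CpG dinucleotides was 11 to 26 in the 8 promoters, with 26 in Il6st and 17 in Il4ra, against a median of 6 over all promoters.

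Both chains of the IL-10 receptor were lower. Il10ra encodes the chain that binds IL-10, and Il10rb encodes the partner that the receptors for IL-22 and the lambda interferons also use. Il10ra (ENSMUSG00000032089, chromosome 9 from 45253837 to 45269149, minus strand) had 134, 122 and 132 normalized reads in the A20KO libraries, against 199, 205 and 162 in the WT libraries. The WT libraries were the more spread, and WT replicate 3 was the nearest to the A20KO values. The difference on the log2 scale was -0.53 (SE 0.134, 95% interval -0.80 to -0.26, adjusted p = 8.1e-04), the least precise of the 10. Il10rb (ENSMUSG00000022969, chromosome 16 from 91406164 to 91425834, plus strand) had 453, 427 and 436 in the A20KO libraries, against 601, 642 and 593 in the WT libraries. The groups were separated by more than the spread within either. The difference on the log2 scale was -0.48 (SE 0.0763, adjusted p = 3.2e-07).

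The type I interferon receptor was lower in both chains. Ifnar2 encodes the chain that binds these interferons most tightly. Ifnar2 (ENSMUSG00000022971, chromosome 16 from 91372783 to 91405589, plus strand) had 590.3, 539.9 and 487 normalized reads in the A20KO libraries, against 795, 713 and 734 in the WT libraries (log2 fold change -0.47, SE 0.0732, adjusted p = 1.6e-07). Ifnar1, its partner (ENSMUSG00000022967, chromosome 16 from 91485238 to 91507441, plus strand), had 1227, 1312 and 1259 in the A20KO libraries, against 1402, 1475 and 1548 in the WT libraries. Its highest A20KO value came close to its lowest WT value without reaching it. The log2 fold change was -0.22 (SE 0.0532, 95% interval -0.33 to -0.11, adjusted p = 4.8e-04). That call ended when limma was run without the variance trend (adjusted p = 0.063).

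The 2 chains of the interferon-gamma receptor went opposite ways. Ifngr1 encodes the chain that binds interferon-gamma. Ifngr1 (ENSMUSG00000020009, chromosome 10 from 19591949 to 19610229, plus strand) had 528, 555 and 586 normalized reads in the A20KO libraries, against 432, 417 and 421 in the WT libraries. All WT values lay close together and below the A20KO values, and the log2 fold change was 0.39 (SE 0.0786, adjusted p = 2.9e-05). Ifngr2, the chain that brings in JAK2 (ENSMUSG00000022965, chromosome 16 from 91547072 to 91565623, plus strand), had 1158, 1056 and 996 in the A20KO libraries, against 1263, 1273 and 1233 in the WT libraries. The A20KO libraries were the more spread, and each was below every WT library. The log2 fold change was -0.23 (SE 0.0571, 95% interval -0.35 to -0.12, adjusted p = 5.4e-04), a call that ended without the variance trend (adjusted p = 0.078).

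**Figure D2:**
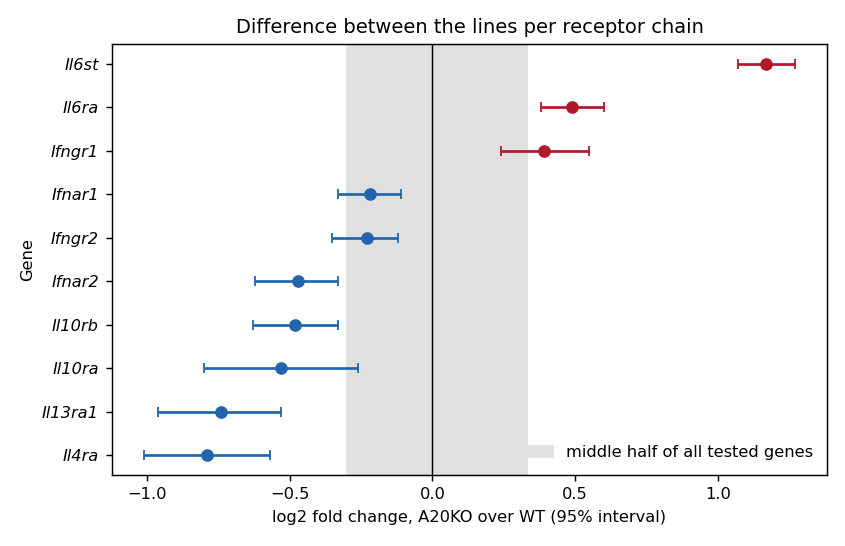
Log2 fold change, A20KO over WT, of each receptor chain with its 95% interval from limma; the grey band runs from -0.30 to 0.33, the quartiles of all 17376 genes tested. Il6st stands apart at 1.17, and the intervals of Ifnar1 and Ifngr2 lie closest to 0.

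The order of the chains by level also differed. Levels between genes are compared as normalized reads per kilobase of gene length, where the length is the union of all exons annotated for the gene, so reads that do not cover a transcript evenly would shift them. In A20KO the order from the highest was Ifngr2 (284 ± 21.8 per kilobase, SD, n = 3), Il6st (220.2 ± 14), Ifnar1 (213 ± 7.17), Ifngr1 (195 ± 10.3), Il6ra (163 ± 3.38), Ifnar2 (162 ± 15.4) and Il10rb (115 ± 3.37). Il13ra1 (58 ± 9.02), Il10ra (37 ± 1.78) and Il4ra (31.9 ± 3.81) were the lowest in A20KO. The ranges of 3 pairs of neighbours overlapped in A20KO, namely Il6st with Ifnar1, Il6ra with Ifnar2, and Il10ra with Il4ra. In WT the order was Ifngr2 (334 ± 5.51), Ifnar1 (248 ± 12.2), Ifnar2 (224 ± 12.8), Il10rb (161 ± 7.02), Ifngr1 (149 ± 2.8), Il6ra (116 ± 2.41) and Il6st (97.6 ± 3.23). Il13ra1 (96.5 ± 8.31), Il4ra (55 ± 4.71) and Il10ra (53.9 ± 6.73) closed it. The overlapping neighbours in WT were Ifnar1 with Ifnar2, Il6st with Il13ra1, and Il4ra with Il10ra. Il6st was thus rank 2 in A20KO and rank 7 in WT, while Ifngr2 was at the top in both lines.

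The balance of paired chains differed most where the common gamma chain was involved. Il2rg encodes that chain, which the receptors for IL-2, IL-4, IL-7, IL-9, IL-15 and IL-21 share. Il2rg had 581, 544 and 548 normalized reads in the A20KO libraries, against 31.1, 29.5 and 44 in the WT libraries (log2 fold change 3.98, SE 0.145, adjusted p = 1.9e-33). Per kilobase, Il4ra stood at 0.12 to 0.154 times Il2rg in the A20KO libraries and at 3.13 to 4.42 times Il2rg in the WT libraries. The chain of the type I IL-4 receptor with more RNA per kilobase was therefore Il2rg in A20KO and Il4ra in WT. The log2 ratio was -2.88 ± 0.177 in A20KO and 1.93 ± 0.256 in WT (SD, n = 3 each), a difference of -4.81 (exact two-sided permutation p = 0.1). With 3 libraries against 3, 0.1 is the smallest p this test can give, and adjustment over the 6 pairs compared cannot lower it.

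For the IL-6 receptor the chain with more reads per kilobase also differed between the lines. Without division by length, Il6st had more normalized reads than Il6ra in all 6 libraries. Which chain was more abundant in WT thus depends on the gene lengths used, 11099 bases for Il6st and 8642 for Il6ra. Il6ra stood at 0.69 to 0.815 times Il6st per kilobase in the A20KO libraries and at 1.13 to 1.23 times in the WT libraries (log2 difference -0.68, exact permutation p = 0.1). Ifngr1 stood at 0.603 to 0.779 times Ifngr2 in A20KO and at 0.433 to 0.453 times in WT, a log2 difference of 0.63 (exact permutation p = 0.1), so Ifngr2 remained the more abundant chain in all 6 libraries. Ifnar1 stood at 1.17 to 1.45 times Ifnar2 in A20KO and at 0.989 to 1.18 times in WT, and these ranges overlapped (log2 difference 0.25, exact permutation p = 0.2). Il4ra stood at 0.457 to 0.731 times Il13ra1 in A20KO and at 0.556 to 0.587 times in WT (log2 difference -0.05, exact permutation p = 1). Il10ra stood at 0.311 to 0.331 times Il10rb in A20KO and at 0.297 to 0.361 times in WT (log2 difference -0.06, exact permutation p = 0.5). In those last pairs the WT or A20KO range lay inside the other, and no difference in balance was detectable with 3 libraries a line.

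**Figure D3:**
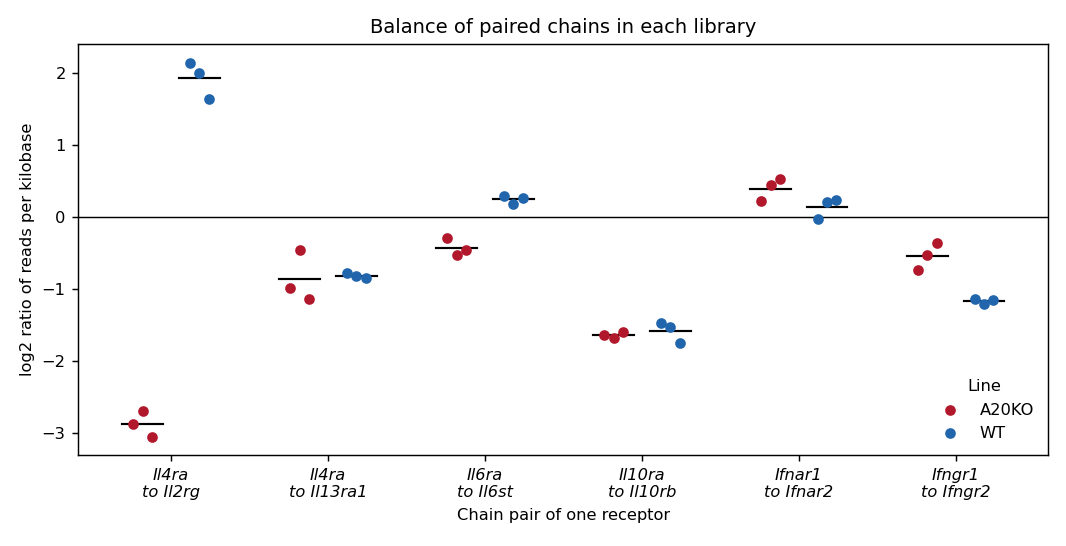
Log2 ratio of normalized reads per kilobase for each pair of chains that form a receptor, in the 3 A20KO libraries (red, left) and the 3 WT libraries (blue, right), with means as black lines. The ratio of Il4ra to Il2rg lies below 0 in A20KO and above 0 in WT, as does that of Il6ra to Il6st. The lines overlap for Il4ra to Il13ra1, Il10ra to Il10rb and Ifnar1 to Ifnar2.

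A run of 4 chains lies on chromosome 16 within 193 kb, in the order Ifnar2, Il10rb, Ifnar1 and Ifngr2, all on the plus strand, and all 4 were lower in A20KO. Of 530 tested genes on chromosome 16, 24.5% were lower and 17.9% were higher. The table lists 5 other genes between them. A930006K02Rik had 47 reads in the A20KO libraries together and 64 in the WT libraries (adjusted p = 0.33), and Gm7860 had 16 and 8 (adjusted p = 0.24). AC150035.2, AC150035.3 and Gm7856 had at most 4 reads in a group and were not tested. Within the run and 300 kb on either side of it, 12 other genes were tested, those between the chains included, of which 2 were higher, 4 were lower and 6 did not pass. Ifnar2 ends 574 bases before Il10rb starts, and the annotated gene Gm21970 on the same strand shares 315 exonic bases with Ifnar2 and 569 with Il10rb. Gm21970 was not among the genes listed, and the sources used here do not say how reads in the shared exons were assigned.

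Promoters of the run are shown because these genes are neighbours that fell together, again as the 250 bases before the RefSeq start in GRCm38.p6 with motif matches in capitals.
Ifnar2, chr16:91372533-91372782, plus strand: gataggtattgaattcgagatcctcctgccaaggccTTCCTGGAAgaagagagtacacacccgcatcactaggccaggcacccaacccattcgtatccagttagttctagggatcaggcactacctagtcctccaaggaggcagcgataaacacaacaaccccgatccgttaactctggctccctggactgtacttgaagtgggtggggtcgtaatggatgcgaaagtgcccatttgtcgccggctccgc
Ifnar1, chr16:91484965-91485214, plus strand: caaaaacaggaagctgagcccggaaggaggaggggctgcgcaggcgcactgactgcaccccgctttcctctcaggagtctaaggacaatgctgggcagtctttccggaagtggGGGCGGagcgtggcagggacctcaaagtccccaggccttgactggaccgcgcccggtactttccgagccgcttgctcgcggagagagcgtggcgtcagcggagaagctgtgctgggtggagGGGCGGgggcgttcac
Ifngr2, chr16:91546809-91547058, plus strand: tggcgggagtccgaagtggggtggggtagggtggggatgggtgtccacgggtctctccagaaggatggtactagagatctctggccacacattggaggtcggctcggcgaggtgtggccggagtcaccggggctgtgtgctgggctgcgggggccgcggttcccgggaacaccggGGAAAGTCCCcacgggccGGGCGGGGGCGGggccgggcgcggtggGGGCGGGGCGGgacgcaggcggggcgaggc
The 3 promoters did not share a motif arrangement. Ifnar2 held 1 GAS site, from 214 to 206 bases before the start, a motif in 7.02% of all promoters, and no GC box. That site matches on both strands and was counted once. Ifnar1 held 2 GC boxes. Ifngr2 held 4 GC boxes and 1 NF-kB consensus match on the minus strand, from 75 to 66 bases before the start, which 7.25% of all promoters hold. The last pair of GC boxes in Ifngr2 overlap by 1 base. The interferon-stimulated response element, in 2.98% of all promoters, and the TATA box, in 12.4%, were in none of the 8 promoters matched.

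**Figure D4:**
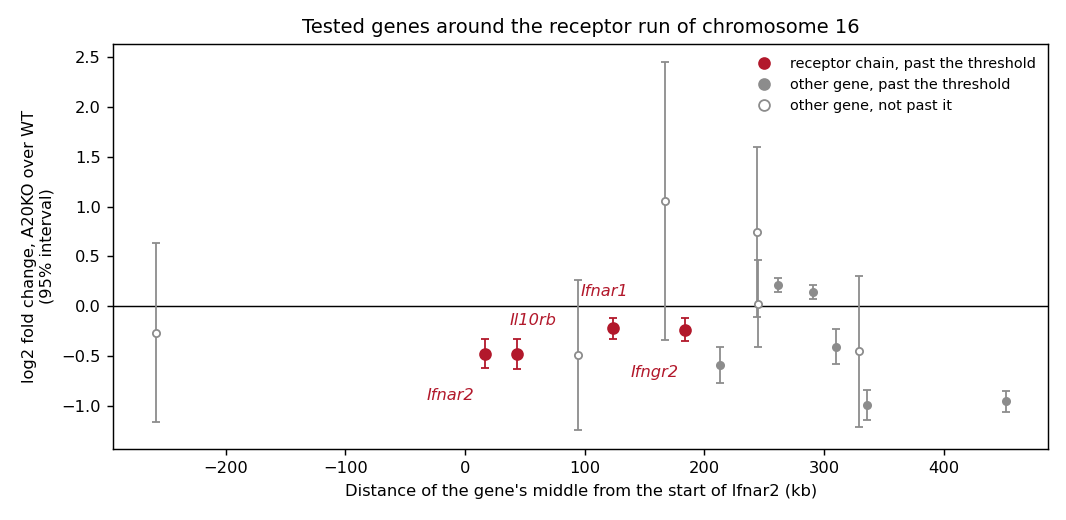
Log2 fold change, A20KO over WT, with its 95% interval for tested genes within 300 kb of the chromosome 16 run, by distance in kb from the start of Ifnar2. The 4 receptor chains (red) lie between -0.48 and -0.22, and other genes (grey, filled where past the threshold) lie on both sides of 0.

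The kinases that these chains carry went in different directions. Of 4 JAK genes 1 rose and 2 fell, beside 20.3% of all genes tested that were higher and 19.6% that were lower. The JAK genes had a median log2 fold change of -0.11, against 0.011 over all genes tested. Among genes as abundant as the receptor chains 59.5% were called. Tyk2, the kinase of the Ifnar1 and Il10rb chains, had 498, 538 and 468 normalized reads in the A20KO libraries, against 1021, 999 and 1045 in the WT libraries (log2 fold change -1.03, SE 0.0677, adjusted p = 1.1e-20). Its level in every A20KO library was far below every WT library. Jak3, the kinase of the common gamma chain, rose by 0.31 on the log2 scale (adjusted p = 3.4e-04). Jak1, which serves the ligand-binding chains of the interferon and IL-10 receptors and gp130, averaged 2391 ± 110.0 in A20KO and 2411 ± 125 in WT (SD, n = 3 each, adjusted p = 0.88). Jak2, the kinase of Ifngr2, differed by -0.20 on the log2 scale (adjusted p = 0.04), with overlapping groups, and its call ended under 7 of 16 alternatives.

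Other chains that pair with these receptors were mostly scarce. Of 9 partner chains listed, 4 were tested, of which 2 rose and 2 did not pass, beside 20.3% of all genes tested that were higher. Ifnlr1, without a WT read, passed the minimum mean only through A20KO. Their median was 1.12, or 1.25 with the chain that had no WT read at its bound. Besides Il2rg, Ifnlr1, the lambda interferon chain that pairs with Il10rb, had 25 reads in the A20KO libraries together and none in the WT libraries (adjusted p = 0.0024). It was at least 8.24-fold higher against a floor of 3 reads over the WT group, and the call ended when A20KO replicate 2 was left out (adjusted p = 0.06) or the variance trend dropped (adjusted p = 0.062). Il27ra, which pairs with gp130, had 11 reads in A20KO and 26 in WT (adjusted p = 0.051), and Il11ra1 had 37 and 60 (adjusted p = 0.32). Il27ra passed without a filter on low values (adjusted p = 0.045), after quantile normalization (adjusted p = 0.035) and without A20KO replicate 1 (adjusted p = 0.01), and its adjusted p was 0.43 without A20KO replicate 3. Of 16 genes listed as other interleukin receptor chains 10 were tested, with 4 higher and 3 lower. Among all genes tested 20.3% were higher and 19.6% lower. Most of the 10 were at least as abundant as Il10ra, where 59.5% of genes were called. The median of the 10 was -0.12. Il7r, the IL-7 receptor chain, fell by 0.66 on the log2 scale, and Il17rc fell by 0.43. Csf2ra, a chain for a colony-stimulating factor rather than an interleukin, differed by -0.14 on the log2 scale (adjusted p = 0.025). That call ended under 6 of 16 alternatives. Il12rb1, 1 of the 4 higher, had 31 reads in A20KO and 1 in WT (adjusted p = 7.1e-05). Il12rb1 too passed the minimum mean only through A20KO. Csf2rb and Csf2rb2 rose by 0.39 and 0.77, but they are near-identical paralogs whose reads the counting could have split, so their values are uncertain.

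Of 18 ligand genes of these receptors 9 were tested, of which 2 fell and 7 did not pass, with a median of -0.20. The share that fell was 22.2%, near the 19.6% of all genes tested that were lower. Ebi3, the subunit that joins Il27 to form IL-27, averaged 108 ± 25.3 normalized reads in A20KO and 477 ± 30.3 in WT (SD, n = 3 each, log2 fold change -2.16, adjusted p = 2.8e-18). Clcf1, a ligand of the gp130 family, had 6 reads in the A20KO libraries together and 84 in the WT libraries (adjusted p = 8.7e-08). Il10 had 14 reads in A20KO and 22 in WT, and Il4 had 60 and 36, and neither passed (adjusted p = 0.84 and 0.14). Il10 and Il4 were named after their values were seen, as ligands of the chains above.

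Of 6 tested STAT genes 4 fell and 1 rose, beside 19.6% lower and 20.3% higher among all genes tested and 59.5% called among genes as abundant as the receptor chains. The median was -0.27. Stat6, which IL-4 and IL-13 activate, fell by 0.35 on the log2 scale (adjusted p = 2.0e-10). Stat2 and Stat3 fell by 0.51 and 0.18, calls that ended without the variance trend (adjusted p = 0.067 and 0.059), and Stat5a rose by 0.44. Of 14 tested SOCS, phosphatase and other brakes 6 fell, a share of 42.9% against 19.6% of all genes tested, and 1 rose, with a median of -0.20. Most of the 14 were as abundant as the receptor chains, where 59.5% of genes were called. The phosphatase genes Ptpn6, Ptpn1 and Ptpn11 fell by 0.42, 0.44 and 0.32 on the log2 scale. Usp18, which binds the IFNAR2 chain and limits type I interferon signalling, had 69 reads in the A20KO libraries together and 24 in the WT libraries. Its adjusted p was 0.0016, and 0.12 with the variance trend dropped. Of 7 genes of receptor shedding and turnover 5 fell and 1 rose, against 19.6% and 20.3% of all genes tested, and the median was -0.25. Most of these 7 were also as abundant as the receptor chains. Adam10 rose by 0.41 and Adam17 fell by 0.50 on the log2 scale, both proteases that can shed the Il6ra chain. Rhbdf2, which encodes iRhom2, the carrier that matures ADAM17, fell by 1.03, and Prkd2 fell by 0.95.

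Genes that the cytokines induce did not follow one pattern, and the lists share members, among them Stat2, Stat3 and Usp18. Of 13 tested genes induced by IL-4 and IL-13, 9 rose and 1 fell, beside 20.3% higher and 19.6% lower among all genes tested. Chil3, Ccl24 and Mgl2, 3 of the 9, had 18, 14 and 26 reads in the A20KO libraries together and none in WT, so they passed the minimum mean only through A20KO and had to differ. With a minimum mean of 5, 7 genes of the list were called in place of 10. The median log2 fold change of the 13 was 1.91, and it was the same with the 4 members that had no WT read at their bounds. The lectin genes Clec10a and Clec7a averaged 403 ± 33.1 and 116 ± 1.95 normalized reads in A20KO, against 2.66 ± 1.52 and 2.98 ± 1.95 in WT (SD, n = 3 each). Tgm2, a transglutaminase, rose by 0.66 and Myc fell by 1.76 on the log2 scale.

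Of 11 tested genes induced by IL-6 and IL-10, 6 fell, a share of 54.5% against 19.6% of all genes tested, and 1 rose, with a median of -0.18. Most of the 11 were as abundant as the receptor chains, where 59.5% of genes were called. Bcl3, an atypical IkB protein, averaged 139 ± 12 normalized reads in A20KO and 617 ± 29.4 in WT, and Pim1 and Junb fell by 1.18 and 0.69 on the log2 scale. Fcgr1, an Fc receptor for IgG, rose by 2.58. Of 20 tested genes induced by type I interferon 12 fell and 1 rose, beside 19.6% lower and 20.3% higher among all genes tested. Their median was -0.52, and 8 passed without the variance trend. Oasl1 had 118, 99.8 and 117 normalized reads in the A20KO libraries, against 247, 280.2 and 298 in the WT libraries (log2 fold change -1.30, adjusted p = 1.7e-13). Oas3 fell by 0.53, and Bst2 fell by 0.33, a call that ended without the variance trend (adjusted p = 0.068). Usp18 was the member that rose.

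Of 14 tested genes induced by interferon-gamma 6 rose and 2 fell, with a median of 0.30. The shares were 42.9% higher and 14.3% lower, against 20.3% and 19.6% of all genes tested. Nlrc5, the transactivator of class I genes, averaged 373 ± 16.2 normalized reads in A20KO and 47.1 ± 12 in WT. Irf8, a transcription factor, rose by 1.19 and Psmb8, an immunoproteasome subunit, by 0.98 on the log2 scale. Cd274, which encodes PD-L1, fell by 1.59. Gbp2 had 2 reads in the A20KO libraries together and 16 in the WT libraries (adjusted p = 0.018), a call that ended under 7 of 16 alternatives. Gbp2 passed the minimum mean only through WT. The lists were chosen with earlier results of these data known, and no list was tested as a set.

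**Figure D5:**
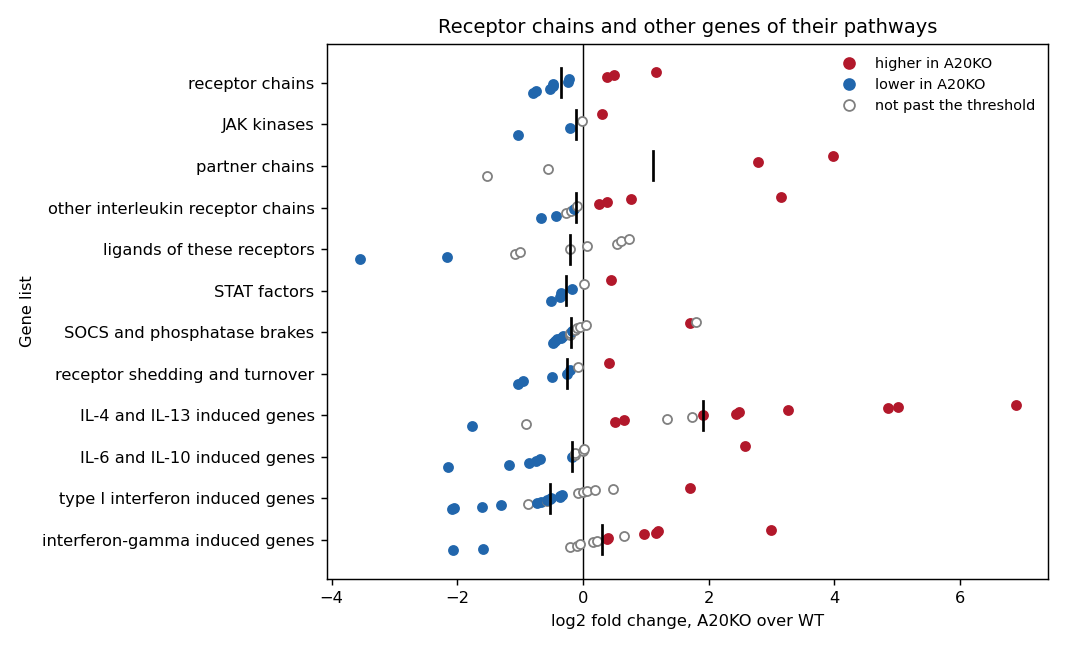
Log2 fold change, A20KO over WT, of each tested gene in the receptor chains and in 11 lists of their pathways, with list medians as black lines; filled points passed an adjusted p of 0.05. Genes without a WT read are drawn at their fitted value, which is no bound; genes induced by IL-4 and IL-13 have the highest median at 1.91.

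Among 9382 other genes with a mean of at least 100, those whose pattern over the 6 libraries was most like that of Il6st were Mrps6 (Pearson r = 0.9996), Srpk1 (r = 0.9991) and Ppp3ca (r = 0.9989), as correlations of log2 values. With 2 groups such a correlation mostly carries the difference between the lines, and 1254 genes had r over 0.95. Mrps6, Srpk1 and Ppp3ca rose by 0.92, 0.35 and 0.54 on the log2 scale in A20KO.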

How the data were processed

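RNA was extracted with Trizol and libraries were made with a SMARTer kit, per the labels' protocols. Per the submitters' processing notes the genome build was mm10. The sources used here do not give the aligner, counter, annotation release or strand setting. The authors deposited 1 table with a normalized signal per gene and library, group means, a log2 fold change, a p-value, an adjusted p-value, and other columns such as gene length, per the file headers. Dividing a library's values by what 1 read was worth gave whole numbers for 100% of genes (tolerance 0.001 reads, widening slightly with the count). Each deposited value is thus a read count over the library's size factor, and whole reads could be recovered. The 10 genes have the same coordinates and lengths in GENCODE M21 (mm10).

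Samples were grouped by their titles. Values were tested as log2(normalized read count + 1) with limma 3.58.1 (trend, robust) in R 4.3.3 over 17376 genes with a mean of at least 1, adjusted by Benjamini-Hochberg with a threshold of 0.05. On the recovered reads, edgeR 4.0.16 called 7042 of these genes (3595 higher, 3447 lower). Further alternatives were DESeq2 1.42.0 and limma-voom. The procedure was tested on simulated counts. Replicates differed by more than sampling noise (chi-square per degree of freedom 2.67 to 3.6), so each library was counted once. In the authors' deposited table all 10 chains had an adjusted p-value under 0.05 (largest 0.0064), in the same direction as here.

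The members, lists, named-gene rule and alternatives were chosen with earlier results of these data known. Named were the 10 chains, all tested JAK and partner chain genes, up to 3 members per direction of other lists by adjusted p, Tnfaip3, 3 genes most like the chain with the largest change, and genes between chains on a chromosome. An item of the lists is not reported by name here. Motif counts used python 3.11.15 and figures matplotlib 3.10.9. Precision was lowest for scarce genes, and the floor of 3 reads covers counting error only.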

Additional observations from a re-analysis of the deposited data

How the results depend on the processing

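All 10 receptor chains kept their direction under 16 alternatives. Without the variance trend Ifnar1 (-0.22, adjusted p = 0.063) and Ifngr2 (-0.23, adjusted p = 0.078) did not pass, and the other 8 chains passed under each alternative. All genes called numbered 4775 without the trend, 5880 with DESeq2 on recovered reads and 6214 to 6515 with 1 library left out, against 6917. All 10 chains passed with each library left out. Partner chains called numbered 1 with a minimum mean of 5 and without the trend, and 1 to 3 with 1 library left out, against 2. Without the trend 2 STAT genes and 8 type I interferon genes passed, against 5 and 13. The cause was not tested. Same-numbered libraries did not deviate together (r = -0.0388, -0.0233 and -0.0922), and none correlated best with its own number in both lines. With so few libraries this check cannot exclude a shared culture or preparation, and libraries were not paired in the main fit. With a replicate block 6729 genes and all 10 chains passed. The balance of Il4ra to Il2rg ranged from -4.95 to -4.7 with 1 library left out, that of Il6ra to Il6st from -0.75 to -0.63, that of Ifngr1 to Ifngr2 from 0.54 to 0.72 and that of Ifnar1 to Ifnar2 from 0.17 to 0.34. That of Il4ra to Il13ra1 ranged from -0.25 to 0.09, on both sides of 0, and that of Il10ra to Il10rb from -0.14 to 0.0. Il10ra had the fewest reads of the 10 chains, 125 to 215 a library.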
